A study of Homo sapiens with 12 samples.

Results

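Translational efficiency, the footprint level of a transcript relative to its RNA level, was compared between human neurons homozygous for an LLPH allele named Nterm (Nterm/Nterm) and neurons wild type at LLPH (wt/wt). Of the 19972 transcripts in the count table, 14786 had enough counts to be tested over all 12 libraries, and 10872 of these carried a gene name. The change was the log2 change in footprints minus the log2 change in RNA, taken as the interaction of assay and genotype, so a value above 0 means more footprints per RNA in Nterm/Nterm. Footprint and RNA libraries were each scaled among themselves, so every value is relative to the other transcripts of the same cells. The description below is organised by gene class and by protein size.

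All cells were induced neurons derived from H1, an established human embryonic stem cell line, in which Ngn2, a transcription factor that drives neuronal differentiation, was overexpressed. Both genotypes were kept without added glia until day 14, with 2 µg/mL doxycycline and 4 µM cytosine arabinoside, which acts against dividing cells, in the medium given on days 5 and 10, and were harvested in 100 µg/mL cycloheximide, which holds ribosomes on mRNA. Each genotype had 3 RNA-seq libraries from polyA RNA and 3 Ribo-seq libraries, which count the mRNA fragments covered by ribosomes. The sources used here do not say what the Nterm allele alters in LLPH or whether replicates were separate clones or cultures, and the p-values therefore speak only for the spread among these samples, which may be technical. RNA libraries held 18944427 to 25089790 counts and footprint libraries 12652833 to 16356419. The genotype tag of the 6 Ribo-seq samples names the opposite genotype to their titles, and every direction below follows the titles, whose genotypes match the column names of the counts.

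A ribosome is built from a large and a small subunit, each an RNA core dressed with ribosomal proteins, and elongation factors move it along the mRNA. LLPH is a small nucleolar protein counted among the large-subunit assembly factors. In vertebrates, mRNAs of ribosomal proteins and elongation factors typically start with a C followed by a run of pyrimidines, the 5′ terminal oligopyrimidine (TOP) tract, through which mTOR signalling controls their translation as a group. For this reason the transcripts are described here as classes as well as one by one.

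Single transcripts were called in 3 cases at an adjusted p under 0.05 (edgeR's quasi-likelihood test with Benjamini-Hochberg adjustment), which is 0.0203% of those tested. LLPH RNA stood at 27.2, 28.7 and 27.4 CPM (counts scaled to library size) in the wt/wt libraries against 30.9, 31.6 and 29.4 CPM in the Nterm/Nterm libraries. LLPH footprints stood at 6.71, 7.92 and 7.07 CPM against 3.12, 1.71 and 2.37 CPM. The footprint groups did not overlap, and translational efficiency fell by 1.74 ± 0.18 on the log2 scale (SE; edgeR adjusted p = 6.67e-05). The other two are clustered beta protocadherins, neuronal adhesion molecules whose paralogs can share reads, which makes their values uncertain. PCDHB5 had 328, 407 and 366 footprint counts in the wt/wt libraries and 5, 8 and 3 in the Nterm/Nterm libraries, and its RNA fell as well, from 12.5, 12.2 and 14.7 CPM to 1.67, 3.09 and 3.04 CPM. Its fitted translational efficiency change was -3.63 ± 0.37 (SE, edgeR adjusted p = 6.67e-05). PCDHB9 footprints rose from 8.01, 7.98 and 8.15 CPM to 12.5, 10.9 and 15.3 CPM while its RNA went from 23.8, 24.4 and 24.9 CPM to 20.8, 19.5 and 19.5 CPM, a translational efficiency change of 0.98 ± 0.15 (SE, edgeR adjusted p = 0.00905). The PCDHB9 call was lost without wt/wt footprint library 1 (edgeR adjusted p = 0.0727) or library 2 (0.0779).

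Below that threshold, 680 transcripts had an unadjusted p under 0.05, of which 427 (2.89% of those tested) were higher and 253 (1.71%) lower in Nterm/Nterm. The median change over all tested transcripts was 0.013, and 53.7% lay above 0. Of the 355 higher transcripts with a name, 66 (18.6%) encoded cytosolic ribosomal proteins, which make up 0.736% of the named transcripts tested. Across the 47 classes with at least 8 tested members, the medians ran from -0.048 for ubiquitin ligases and deubiquitinases to 0.26 for large-subunit ribosomal proteins. The next class below the 2 ribosomal protein classes, the interferon response, had a median of 0.17, close to 0.16 for elongation and release factors. In several fits that left out 1 library it fell below that class. It was 0.13 against 0.18 without wt/wt RNA library 2, and 0.038 against 0.14 without Nterm/Nterm RNA library 3. Its place in this order is therefore not firm.

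**Figure D1:**
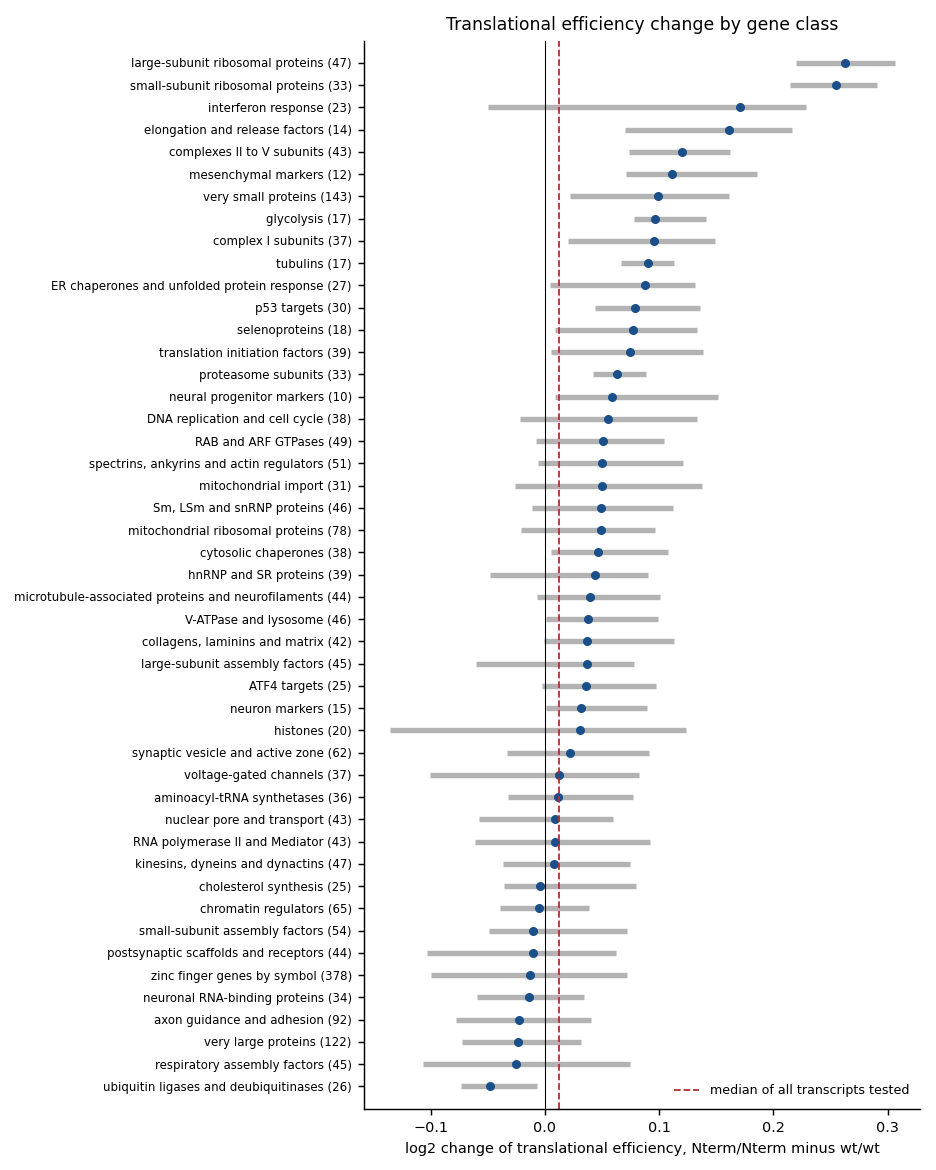
Median log2 change of translational efficiency, Nterm/Nterm minus wt/wt, in each of 47 gene classes (points) with the middle 50% of members (grey bars) and the number tested in brackets. The bars of both ribosomal protein classes lie wholly above the median of all transcripts, 0.013 (dashed line).

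The large-subunit ribosomal proteins had a median change of 0.26, with all 47 above 0 and a range of 0.11 to 0.36. An unadjusted p under 0.05 was reached by 38 of the 47, all higher, against 2.89% of all transcripts, and none was called at an adjusted p under 0.05. The 33 small-subunit ribosomal proteins had a median of 0.25, all above 0, with 28 at an unadjusted p under 0.05, all higher, and none called. The 2 subunits thus had medians closer to each other than the spread between libraries, 0.10 and 0.089 on the log2 scale (SD). That spread combines the footprint and RNA SDs of the class median among single libraries of a genotype. It is not the error of a difference between group means. The smallest adjusted p among the 80 was 0.304 (edgeR, RPS15A). DESeq2 called 28 of the 80, but its independent filtering gave an adjusted p to only 740 transcripts, and without that filtering it called 2. With a replicate block by culture, edgeR called 4 of the 80.

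Both assays entered the difference, and since the translational efficiency change contains the RNA change, the values below are not independent of it. The median RNA change of the 80 was -0.16, with 1 of 80 above 0 and 50 called lower in the RNA fit, against 10.6% of all transcripts called lower there. With the replicate number as a block, by which the RNA libraries of the 2 genotypes paired, 71 of the 80 were called lower. That fit called 2407 of all 14659 transcripts lower. The median footprint change was 0.096, with 76 of 80 above 0 and none called in the footprint fit, where 4.36% of transcripts were called higher. Relative to the wt/wt mean, the median of the 80 in RNA was 0.05, -0.01 and -0.05 in the wt/wt libraries and -0.09, -0.18 and -0.22 in the Nterm/Nterm libraries. In footprints it was 0.01, -0.09 and 0.08 in wt/wt against 0.14, 0.13 and 0.03 in Nterm/Nterm. The RNA groups did not overlap, whereas Nterm/Nterm footprint library 3 lay among the wt/wt libraries. As a share of all counts, the 80 genes took 3.33%, 3.21% and 3.11% of wt/wt RNA and 3.03%, 2.86% and 2.76% of Nterm/Nterm RNA. Their share of footprints was 1.92%, 1.87% and 2.01% in wt/wt against 2.08%, 2.06% and 1.96% in Nterm/Nterm.

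**Figure D2:**
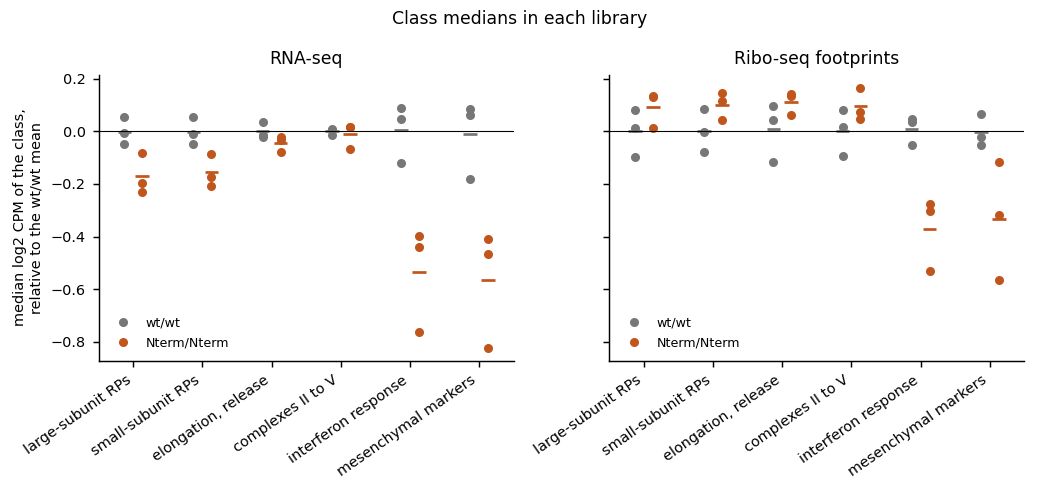
Median log2 CPM of 6 gene classes in each library, relative to the wt/wt mean of each transcript, for RNA (left) and footprints (right); points are libraries, horizontal marks their mean, and RPs are cytosolic ribosomal proteins. The ribosomal protein medians of the Nterm/Nterm libraries lie below those of wt/wt in RNA and overlap them in footprints.

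RPL28, a large-subunit protein, had the smallest unadjusted p of its class (0.000375). Its RNA stood at 378, 348 and 333 CPM in wt/wt against 305, 292 and 292 CPM in Nterm/Nterm, and its footprints at 248, 249 and 271 CPM against 285, 281 and 262 CPM. The RNA groups were separate and the footprint groups overlapped, with a translational efficiency change of 0.36 ± 0.08 (SE, edgeR adjusted p = 0.616). RPL7A changed by 0.34 ± 0.09 and RPL5, which carries 5S rRNA into the large subunit, by 0.32 ± 0.08 (SE), neither past the threshold. RPL4, the most abundant large-subunit mRNA, went from 1110, 1056 and 1028 RNA CPM to 969, 913 and 908 RNA CPM. Its footprints were 566, 509 and 576 CPM in wt/wt against 599, 615 and 585 CPM in Nterm/Nterm, so that both assays gave separate groups, in opposite directions. The RPL4 change was 0.32 ± 0.09 (SE, edgeR adjusted p = 0.765).

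Among small-subunit members, RPS15A RNA stood at 239, 233 and 233 CPM in wt/wt against 204, 195 and 192 CPM in Nterm/Nterm. RPS15A footprints were 85.1, 83.2 and 93.2 CPM against 92.8, 94.1 and 92.5 CPM, where wt/wt library 3 fell among the Nterm/Nterm values, and its change was 0.35 ± 0.08 (SE). RPS3, which lines the mRNA entry channel, changed by 0.34 ± 0.09 and RPS20 by 0.31 ± 0.08 (SE). RPS2, the most abundant, changed by 0.36 ± 0.11 (SE). RPSA had the highest estimate and a wide error, 0.45 ± 0.18 (SE). The lowest were RPS26 at 0.07 ± 0.08, RPS21 at 0.10 and, in the large subunit, RPL37 at 0.11. RPS26 was also the only one of the 80 whose RNA change was above 0, at 0.04. Many ribosomal protein genes have processed pseudogenes, and how shared reads were counted is not given, so single values in this family are uncertain.

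**Figure D3:**
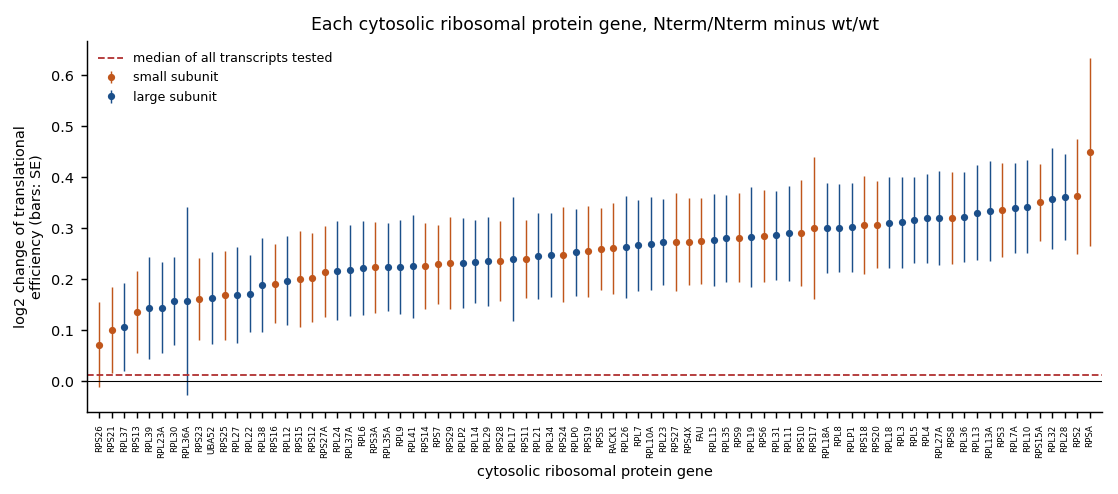
Log2 change of translational efficiency, Nterm/Nterm minus wt/wt, with its SE for each of 80 cytosolic ribosomal protein genes, ordered by value. All points lie above 0 and above the median of all transcripts (dashed line), from RPS26 at 0.07 to RPSA at 0.45.

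The sign and size of the ribosomal protein shift were examined with each library left out in turn. The median of the 80 ran from 0.21 without wt/wt footprint library 2 to 0.30 without wt/wt footprint library 3, and all 80 stayed above 0 in each of these 12 fits. The number at an unadjusted p under 0.05 ran from 50 to 73. With the footprint libraries grouped by the genotype tag instead, the median of the 80 was 0.070 with 60 above 0, elongation and release factors had a median of -0.026, complexes II to V -0.069, and LLPH turned to 1.46. In the authors' deposited table of translational efficiency, the median log2 ratio of Nterm/Nterm to wt/wt was 0.24 for the 80, all 80 ratios were above 1, and 39 had a deposited p under 0.05, against 4.67% of the 10932 transcripts in that table. Those values come from the same libraries and are not independent of the counts.

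Ribosomal protein transcripts are abundant, so they were set beside others of high level. In the highest 10% of named transcripts by mean footprint level, at or above 206 CPM, 53 ribosomal protein transcripts had a median change of 0.27, and the 1035 other named transcripts had a median of 0.051. Of those others, 61 (5.89%) were higher at an unadjusted p under 0.05.

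The start of the mRNA was compared with RefSeq start sites (GRCh38.p14), since the TOP tract is the known shared feature of this class. The windows below run from 10 bases before the annotated start to 14 bases after it, and capitals mark the pyrimidine run that begins with a C at the start itself. They show 6 ribosomal protein genes, 3 other translation factors, and RPL4 and LLPH, whose annotated starts have no such run.
RPL28 (chr19:55385922-55385946, plus strand): cctcgccttcCTCTTTCCgtctcag
RPL7A (chr9:133348208-133348232, plus strand): attccctttcCTTTCTCTCTCCTCC
RPL13A (chr19:49487598-49487622, plus strand): aaacctcctcCTTTTCCaagcggct
RPS3 (chr11:75399508-75399532, plus strand): cgagccacttCCTTTCCTTTCagcg
RPS6 (chr9:19380222-19380246, minus strand): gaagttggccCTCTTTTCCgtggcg
RPS18 (chr6:33272065-33272089, plus strand): cacttccgctCTCTCTTCCacagga
EEF2 (chr19:3985449-3985473, minus strand): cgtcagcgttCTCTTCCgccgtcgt
EEF1A1 (chr6:73521018-73521042, minus strand): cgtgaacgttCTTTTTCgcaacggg
EIF4B (chr12:53006446-53006470, plus strand): tcatccgggtCTTTTgcgttctctt
RPL4 (chr15:66504841-66504865, minus strand): cgggagtggtaagcacttccttttc
LLPH (chr12:66130736-66130760, minus strand): gaagtgcaaagacttccggtcggcg

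A tract was counted where the base at the annotated start is C and the next 4 are each C or T, read on the gene's strand only. It was present at 4.07% of the 35116 RefSeq start sites. Among genes with a single listed start, 42 of 54 ribosomal protein genes had it (77.8%), and 323 other named genes (5.23%). Ribosomal protein genes with the tract had a median change of 0.25 and the 12 without it 0.23. The 323 other genes with the tract had a median of 0.059, with 212 above 0, and 19 were higher and 3 lower at an unadjusted p under 0.05. The 5849 other genes without it had a median of 0.012, with 144 higher and 84 lower. Among the most highly footprinted genes, those above 76.7 CPM on average, the medians were 0.068 for 123 genes with the tract and 0.029 for 1863 without it. Of the 123, 96 lay above 0, and 14 (11.4%) were higher and 1 lower at an unadjusted p under 0.05. Of the 1863, 1187 lay above 0, and 60 (3.22%) were higher and 15 lower. Genes outside the ribosome that met this rule had a median nearer to that of all transcripts than to that of the ribosomal proteins. The rule reads letters alone and was met at 4.07% of all start sites. How many of the 323 genes are TOP mRNAs was not tested. An annotated start is a single position and real starts vary, so the absence of these letters says nothing of how RPL4 is translated.

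Elongation and release factors, which carry aminoacyl-tRNA, translocate the ribosome and end translation, had a median change of 0.16 over 14 tested members. Of these, 12 were above 0, and at an unadjusted p under 0.05, 5 were higher and none lower, against 2.89% and 1.71% of all transcripts. None was called by edgeR, whereas DESeq2 called EEF1G and EEF2 (adjusted p = 0.0159 for both). Without wt/wt footprint library 2 the median was 0.10. EEF2, the translocation factor, had 3012, 2844 and 2857 RNA CPM in wt/wt against 2649, 2507 and 2644 RNA CPM in Nterm/Nterm. Its footprints were 1381, 1255 and 1489 CPM against 1562, 1625 and 1480 CPM, overlapping through Nterm/Nterm library 3, and its change was 0.34 ± 0.10 (SE, edgeR adjusted p = 0.765). EEF1A1, which delivers aminoacyl-tRNA and was the most abundant of the class, changed by 0.31 ± 0.12 (SE). EEF1G changed by 0.42 ± 0.11 (SE), but its footprint level of 12.2 to 16.4 CPM beside 1129 to 1340 RNA CPM makes its read assignment doubtful. The release factor ETF1 was at -0.07 and the ribosome recycling factor ABCE1 at -0.02.

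Other translation classes shifted less. The 39 initiation factors had a median of 0.074, within a range of -0.20 to 0.76, and a median of 0.047 without wt/wt footprint library 2. At an unadjusted p under 0.05, 5 were higher and none lower, against 2.89% and 1.71% of all transcripts. The members named next do not include the highest. The poly(A)-binding protein PABPC1, whose mRNA is a known TOP mRNA, changed by 0.35 ± 0.10 and the helicase cofactor EIF4B by 0.19 ± 0.07 (SE), whereas EIF5B stood at -0.20 ± 0.11 and EIF5 at -0.11 ± 0.09 (SE). The 78 mitochondrial ribosomal proteins had a median of 0.049, the 36 aminoacyl-tRNA synthetases 0.011, the 45 large-subunit assembly factors, LLPH among them, 0.036 and the 54 small-subunit assembly factors -0.010. The medians of the mitochondrial ribosome and of the factors that assemble cytosolic ribosomes lay closer to that of all transcripts, and no test compared the classes.

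Subunits of the mitochondrial respiratory chain were the next class of abundant housekeeping transcripts. Complexes II to V, from succinate dehydrogenase to ATP synthase, had a median of 0.12 over 43 transcripts, with 39 above 0. At an unadjusted p under 0.05, 5 were higher and none lower, against 2.89% and 1.71% of all transcripts. The class median was 0.063 without wt/wt footprint library 2. Their RNA medians overlapped, and their footprint median was 0.02, -0.09 and 0.08 in wt/wt against 0.17, 0.07 and 0.05 in Nterm/Nterm, also overlapping. SDHD, a membrane subunit of succinate dehydrogenase, went from 22.3, 22.0 and 21.2 to 18.8, 20.3 and 16.8 RNA CPM and from 11.1, 11.8 and 10.1 to 12.5, 14.0 and 11.4 footprint CPM. The RNA groups were separate and the footprints overlapped. The SDHD change was 0.42 ± 0.14 (SE, edgeR adjusted p = 0.879). ATP synthase subunits ATP5MC2, at 0.26 ± 0.10, and ATP5PF, at 0.21 ± 0.08, came next, while the most abundant, ATP5F1B, changed by 0.12 ± 0.09 (SE). Complex I subunits had a median of 0.096 over 37. In contrast, the 45 respiratory assembly factors had a median of -0.025, with COX19 at -0.27 ± 0.10, NDUFAF7 at -0.39 ± 0.17 and PET100 at 0.27 ± 0.11 (SE). ATPAF1, their most abundant, stood at 0.01 ± 0.09 (SE).

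Interferon-response and mesenchymal genes were also among the 6 highest classes, on a different footing, since both assays were lower in Nterm/Nterm and RNA more so. The 23 interferon-response transcripts had a median translational efficiency change of 0.17, with 16 above 0. At an unadjusted p under 0.05, 4 were higher, against 2.89% of all transcripts. The class median was smaller than the spread between libraries (SD 0.19), and it dropped to 0.085 when footprint library 2 of Nterm/Nterm was left out. The median change of these transcripts was -0.53 in RNA, with 19 called lower, against 10.6% of all transcripts in the RNA fit. In footprints it was -0.35, with 14 called lower, against 8.91% of all transcripts in the footprint fit. HLA-B, an antigen-presenting molecule, had 451, 435 and 386 RNA CPM in wt/wt against 288, 290 and 213 in Nterm/Nterm. HLA-B footprints were 199, 178 and 194 CPM against 173, 171 and 132 CPM, so that neither assay overlapped, and its translational efficiency change was 0.42 ± 0.15 (SE, edgeR adjusted p = 0.986). HLA-C changed by 0.39 ± 0.14 and B2M, the light chain of these molecules, by 0.30 ± 0.12 (SE).

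The 12 mesenchymal markers had a median translational efficiency change of 0.11, with 11 above 0. At an unadjusted p under 0.05, 2 were higher, against 2.89% of all transcripts. The spread of the class median between libraries was wider than that median (SD 0.25). It was 0.019 without Nterm/Nterm RNA library 3, 0.026 without Nterm/Nterm footprint library 2 and 0.064 and 0.071 without wt/wt RNA libraries 1 and 2. It was 0.20 without wt/wt RNA library 3, 0.21 without Nterm/Nterm RNA library 2 and 0.22 without Nterm/Nterm footprint library 3. Their median change was -0.56 in RNA and -0.33 in footprints. COL1A2, a fibrillar collagen chain, changed by 0.34 ± 0.15, the actin-binding TAGLN by 0.27 ± 0.13, COL6A1 by 0.11 ± 0.09 and the most abundant, FN1, by 0.12 ± 0.19 (SE). FN1 turned below 0 without Nterm/Nterm RNA library 3 (-0.016) or Nterm/Nterm footprint library 2 (-0.0069). In another, shorter marker list for mesenchymal cells, 8 of 15 markers had a named transcript. Their summed RNA level was 4071 to 4996 CPM in wt/wt and 2669 to 3501 CPM in Nterm/Nterm. COL3A1, COL6A3, LUM, DCN, POSTN, PDGFRA and PDGFRB had no named transcript and were not analysed here. The 15 neuron markers, all named, summed to 17244 to 18458 RNA CPM in wt/wt and 19691 to 21426 CPM in Nterm/Nterm. Neural progenitor markers, 6 of 8 named, summed to 1092 to 1178 and 858 to 1002 RNA CPM, pluripotency markers, 2 of 6 named, to 219 to 233 and 145 to 177, and glial markers, 2 of 14 named, to 39.6 to 48.9 and 32.2 to 42.0, each in the same order. POU5F1, NANOG, PAX6 and GFAP were among those with no named transcript. In such bulk samples fewer cells of a type and less RNA per cell cannot be told apart, and the part of these marker differences in the shifts of either class was not tested. The 42 collagens, laminins and matrix genes had a median change of -0.59 in RNA, -0.58 in footprints and 0.037 in translational efficiency.

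The lowest class medians were small, and leaving out 1 library moved each of them by more than 1.5 times. Over those fits the medians ran from -0.083 to -0.0060 for ubiquitin ligases, -0.063 to -0.00037 for respiratory assembly factors, -0.049 to 0.00048 for axon guidance, -0.049 to 0.0077 for neuronal RNA-binding proteins and -0.049 to 0.0092 for zinc finger genes. Axon guidance and neuronal RNA-binding proteins turned above 0 without wt/wt footprint library 3, the latter also without Nterm/Nterm RNA library 3, and zinc finger genes without Nterm/Nterm footprint library 2. Ubiquitin ligases and deubiquitinases, large enzymes that attach or remove ubiquitin, had a median of -0.048 over 26 transcripts, with 6 above 0 and none at an unadjusted p under 0.05. UBR2 stood at -0.18 ± 0.09, UBE3B at -0.16 ± 0.09, UBE4B at 0.09 ± 0.07 and the most abundant, HUWE1, at 0.02 ± 0.11 (SE). The 92 axon guidance and adhesion genes had a median of -0.023, with 36 above 0, 1 higher and 2 lower at an unadjusted p under 0.05. Over all transcripts 2.89% were higher and 1.71% lower. SEMA3A, a secreted axon repellent, had 15.5, 16.4 and 14.2 RNA CPM in wt/wt against 19.0, 20.2 and 20.5 in Nterm/Nterm, and 18.2, 17.0 and 13.3 footprint CPM against 15.1, 14.8 and 13.6. Its RNA groups were separate and its footprints overlapped, with a translational efficiency change of -0.53 ± 0.15 (SE, edgeR adjusted p = 0.765). The adhesion molecule DSCAML1 stood at -0.29 ± 0.14, the receptor EPHB3 at 0.30 ± 0.13 and the most abundant, NCAM1, at -0.0022 ± 0.10 (SE).

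Neuronal RNA-binding proteins, which regulate splicing and mRNA stability, had a median of -0.014 over 34 transcripts, none at an unadjusted p under 0.05. Their 3 smallest p-values belonged to FXR2 at 0.14 ± 0.08, PUM2 at -0.12 ± 0.08 and MBNL2 at -0.18 ± 0.12 (SE), and RBFOX2, the most abundant, stood at -0.05 ± 0.08. The 378 zinc finger genes, taken by symbol and mostly transcription factors of low level, had a median of -0.013, with 9 higher and 3 lower at an unadjusted p under 0.05. Those counts stand beside 2.89% higher and 1.71% lower over all transcripts. ZNF621 was at 0.43 ± 0.12, ZNF282 at 0.29 ± 0.10, ZNF883 at -0.43 ± 0.14 and the most abundant, ZNF664, at -0.07 ± 0.10 (SE).

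Protein size was described with 2 lists of genes chosen for encoding very small or very large proteins, since protein lengths were not used here. The 133 very small proteins outside the cytosolic ribosome had a median of 0.088, with 104 above 0, 14 higher and none lower at an unadjusted p under 0.05. Without mitochondrial ribosomal, respiratory and histone genes as well, 100 remained, with a median of 0.071, 76 above 0 and 12 higher. The 122 very large proteins had a median of -0.024, with 44 above 0, none higher and 3 lower. Among all transcripts tested 2.89% were higher and 1.71% lower. The lists differed by 0.11 on the log2 scale, which is less than the spread of that difference between single libraries (SD 0.14, both assays combined). Under the fit that leaves out Nterm/Nterm footprint library 1 the difference was 0.031, and the very large median turned to 0.016, while without wt/wt footprint library 2 it was -0.099 and without wt/wt footprint library 3 it was 0.0044. The very small median was 0.046 and 0.048 without the first and the second of these libraries. A difference by size was therefore not larger than the spread between single libraries, and its error over the group means was not estimated.

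The size lists also differ in level, so they were compared within 3 equal groups of named transcripts by mean footprint level, divided at 28.6 and 76.7 CPM. In the low group the medians were 0.050 for 21 very small and 0.036 for 6 very large proteins. In the middle group they were 0.067 for 41 and -0.052 for 24, of which 2 lay above 0, and in the high group 0.10 for 71 and -0.019 for 92. All named transcripts outside the cytosolic ribosome had medians over the same groups from -0.0011 to 0.029.

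**Figure D4:**
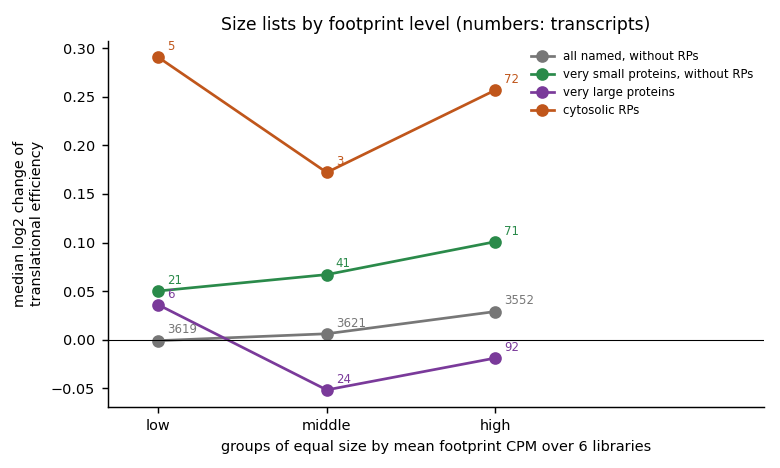
Median log2 change of translational efficiency for cytosolic ribosomal proteins (RPs), very small proteins, very large proteins and all named transcripts outside the cytosolic ribosome, in 3 equal groups by mean footprint CPM; numbers are transcripts. In the high group the ribosomal proteins lie at 0.26, very small proteins at 0.10 and very large proteins at -0.019.

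Among the very small proteins, the smallest p-values with a higher estimate belonged to FKBP1A, which folds proteins and binds rapamycin, at 0.50 ± 0.16, to the dynein light chain DYNLRB1 at 0.29 ± 0.11, and to the ribosomal proteins RPS28 at 0.24 ± 0.08 and RPS27 at 0.27 ± 0.10 (SE). FKBP1A had 2.67 to 4.65 footprint CPM beside 281 to 313 RNA CPM, so its estimate rests on 35 to 58 footprint counts per library. With a lower estimate they were the mitochondrial import chaperones TIMM8A at -0.34 ± 0.17 and TIMM8B at -0.13 ± 0.11, the nucleosome-binding HMGN3 at -0.16 ± 0.12 and the RNA-binding LSM3 at -0.12 ± 0.10 (SE). Among the very large proteins, the DNA-damage kinase ATM stood at -0.22 ± 0.10, DMXL1, a regulator of the vacuolar proton pump, at -0.19 ± 0.09, the sodium-leak channel subunit UNC80 at -0.26 ± 0.13 and the lipid transfer protein VPS13C at -0.23 ± 0.11 (SE). The higher ones were CHD6 at 0.11, CSMD3 at 0.18, MED12 at 0.09 and CELSR2 at 0.10, each with an SE of 0.09 to 0.18. The most abundant, MAP1B, a microtubule-associated protein of axons, stood at 0.02 ± 0.15 (SE).

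The remaining 35 classes had medians between -0.010 for postsynaptic scaffolds and receptors and 0.099 for all very small proteins, with 31 above 0. LLPH was the only transcript in them called by edgeR, and DESeq2 with independent filtering, which gave LLPH no adjusted p, called others among initiation factors, chaperones, microtubule-associated, lysosomal and neural progenitor genes. Glycolysis had a median of 0.096 over 17 transcripts, tubulins 0.090 over 17 and proteasome subunits 0.063 over 33, of which 31 were above 0. Neuronal classes lay near the median of all transcripts, with synaptic vesicle and active zone genes at 0.022 over 62, voltage-gated channels at 0.012 over 37 and neuron markers at 0.032 over 15. Cholesterol synthesis genes stood at -0.0045 over 25. Their RNA was higher, at a median of 0.20 with 17 called higher, against 7.25% of all transcripts. Their footprints were higher too, at 0.21 with 9 called higher, against 4.36% of all transcripts.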

How the data were processed

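The authors deposited whole-number counts per transcript for 12 libraries, with no normalization, and a table of translational efficiency with the ratio of the genotype means and an unadjusted p-value per transcript. Per the submitters' processing notes, which give no roles, the tools were Salmon 1.4.0, Bowtie2 2.3.4.3, cutadapt 2.4 and UMI-tools 1.0.1, with limma and edgeR, and the build was GRCh37. The sources used here do not give the treatment of reads shared by paralogs. The deposited ratio table supplied gene names for 10872 of the transcripts tested.

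Groups followed the sample titles. Counts were filtered with filterByExpr over the 4 groups and scaled by TMM within each assay, and the interaction of assay and genotype was tested with edgeR 4.0.16 in R 4.3.3 (quasi-likelihood F test, two-sided, Benjamini-Hochberg adjustment over all 14786 transcripts, threshold 0.05). SE was derived from each change and its F statistic (change over root F). RNA and footprints were also fitted alone, on 14659 and 13566 transcripts. CPM are scaled by TMM. Fitted to simulated counts, the script recovered 97 of 100 transcripts altered 2-fold and 75 of 100 altered 1.5-fold in translational efficiency, with 9 false calls among 14694. The altered transcripts were drawn from those with many counts. Changes as small as the ribosomal protein shift were not simulated.

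Of the 2086 entries in the gene lists, 1935 matched a named transcript, and zinc finger genes were taken by symbol. Members and lists were chosen with earlier results of these data known. Classes are described by counts and medians, without a test. The classes named are the 6 highest and 6 lowest medians among those with at least 8 tested members, and in each the 3 members of smallest p and the one of highest RNA CPM. In each size list the 4 of smallest p in each direction were named. Other genes were chosen after their values were seen. In the RNA fit replicate numbers paired the libraries: deviations from the group means of same-numbered wt/wt and Nterm/Nterm libraries correlated at 0.23, 0.26 and 0.49. Planned bins of protein length could not be made without protein lengths, and size lists took their place. DESeq2 1.42.0, limma-voom 3.58.1, other scalings and filters, replicate blocks, the genotype tag and fits without each library in turn were alternatives.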

Additional observations from a re-analysis of the deposited data

How the results depend on the processing

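The number of called transcripts was 3 under DESeq2 size factors, TMM over all 12 libraries, limma-voom and no filter on low counts, 2 with at least 10 counts in each library, 2 to 4 with 1 library left out, 38 with DESeq2, all higher and none of them among the 3, and 8, with the 3 among them, with DESeq2 without independent filtering, the last chosen after seeing the data. Grouping the footprint libraries by their genotype tag instead, 4150 transcripts were called. The tag gave medians of 0.073 for large-subunit and 0.059 for small-subunit ribosomal proteins and -0.051 for very small proteins outside the ribosome, and reversed LLPH (1.46), PCDHB5 (8.30) and PCDHB9 (-0.40). Without 1 library in turn, the medians ran from 0.21 to 0.30 for large-subunit and 0.20 to 0.29 for small-subunit ribosomal proteins, 0.046 to 0.12 for very small and -0.099 to 0.016 for very large proteins, and the difference between the size lists from 0.031 to 0.19. TMM over all libraries moved very small proteins to 0.048 and very large ones to -0.064, and the authors' deposited ratios gave 0.078 and -0.044.

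Replicate numbers were checked for pairing by correlating deviations from the group means over 10764 transcripts. RNA and footprint libraries of the same number gave 0.029, 0.082 and 0.27 for wt/wt, with 0.22, 0.43 and 0.49 for Nterm/Nterm, and 4 of these 6 pairs correlated best with their own number. Footprint libraries of the 2 genotypes gave 0.032, 0.14 and 0.32, where pairs 2 and 3, unlike pair 1, correlated best with their own number. Not every pair was over 0.1, unlike in the RNA libraries alone, and whether samples of the same number share a culture is not given. The main fit over all 12 libraries used no block. A replicate block by number called 5 transcripts and by culture 20, among them 4 ribosomal proteins, HLA-B (edgeR adjusted p = 0.0047) and HLA-C (0.015). An unadjusted edgeR p under 0.05 was reached by 1056 transcripts with the block by number and 1209 by culture, in place of 680. In the RNA fit the block by number called 4504 transcripts in place of 2624, and in the footprint fit 2317 in place of 1800. With the block by number, ribosomal protein medians were 0.26 and 0.25. Fits in bins of protein length were not run. Counting error limits low transcripts: LLPH rests on 22 to 135 footprint counts per library and PCDHB5 on 3 to 8 in Nterm/Nterm.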

Other observations

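Some genes typical of epithelia were noticed after their values were seen, with no list or test behind the choice. The tight-junction protein CLDN4 had 414, 404 and 380 RNA CPM in wt/wt against 334, 334 and 278 in Nterm/Nterm. Its footprints were 324, 312 and 348 CPM against 337, 376 and 297 CPM, overlapping, and its translational efficiency change was 0.38 ± 0.11 (SE, edgeR adjusted p = 0.765). The keratins KRT8, KRT18 and KRT19, filament proteins of epithelia, changed by 0.34 ± 0.14, 0.31 ± 0.15 and 0.36 ± 0.14, and CLDN6 by 0.33 ± 0.13 (SE), none past the threshold. CDH1 and EPCAM, epithelial adhesion molecules, were at 0.14 ± 0.11 and -0.00086 ± 0.13 (SE). Both stand in the pluripotency gene class, not among the pluripotency markers summed above.

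PCDHB10, a neighbour of the called PCDHB9 in the same gene cluster, had 9.69, 9.16 and 9.45 footprint CPM in wt/wt against 15.9, 14.5 and 16.8 CPM in Nterm/Nterm, with no overlap. Its RNA stood at 23.2, 23.7 and 24.9 CPM against 24.7, 25.1 and 29.2 CPM, and its translational efficiency change was 0.60 ± 0.13 (SE, edgeR adjusted p = 0.304). PCDHB2 of the same cluster stood at 0.03 ± 0.08 (SE).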
